A study of Mus musculus with 24 samples.

Results

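The chemokine and chemokine receptor genes described here are 38 symbols, of which 37 had a row in the count table of 37991 Ensembl genes. They were chosen by name alone, with rows matched to symbols through the GENCODE M1 annotation, and Ccl28 had no gene model there and was not analysed here. RNA was sequenced from mammary tissue of female mice in 8 groups of 3. PyMT mice carried 1 copy of a transgene for polyoma middle T, driven in mammary epithelium by the promoter of the mouse mammary tumor virus (MMTV), on the FVB background, and FVB mice of the same age without the transgene were the controls. Samples were taken at week 6 (hyperplasia in PyMT mice), week 8 (adenoma/MIN), week 10 (early carcinoma) and week 12 (late carcinoma), from mammary tumors of PyMT mice and normal glands of FVB mice. Each library came from whole tissue, so fewer cells of a type and less RNA per cell cannot be told apart in any comparison.

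Chemokines are small secreted proteins that guide the migration of leukocytes and other cells along gradients, through receptors that couple to G proteins. They are grouped by the spacing of their first cysteines into CC, CXC and CX3C families, and several of their genes lie side by side in clusters that arose by duplication. In the mammary gland, stromal, endothelial, epithelial and myeloid cells all make chemokines, and in PyMT tumors the CCL2 to CCR2 axis is known for bringing in monocytes.

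Of the 37 genes, 21 passed a filter of at least 1 CPM (read counts scaled to the library total) in at least 12 of the 24 libraries and were tested, 8 CC ligands, 7 CXC or CX3C ligands and 6 receptors. A gene high in only 1 genotype could pass through that genotype, and 4 of the 21 (Ccl7, Ccl24, Cxcl1 and Cxcl9) had at least 1 CPM in fewer than 6 of the 12 libraries of a genotype. Levels are given as normalized counts, which are read counts over DESeq2's size factors. A differentially expressed gene (DEG) had a fold change above 2 and a p under 0.05 in the quasi-likelihood test of edgeR, adjusted by the method of Benjamini and Hochberg over all 14918 tested genes. Total counts ran from 6969375 to 13516601 per library. In 13 libraries, 6 of PyMT and 7 of FVB, low counts came in packets, with a peak in the number of genes at 8 to 25 counts, so a value of that size can come from 1 packet. In 7 libraries (FVB week 6 replicates 1 and 2, week 10 replicate 3 and week 12 replicate 1; PyMT week 6 replicates 1 and 2 and week 10 replicate 3) the skeletal muscle markers summed to 16200 to 482000 normalized counts, against 4580 or less elsewhere. The replicates are separate mice.

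Averaged over the 4 weeks in a fit of all 24 libraries, 4 of the 21 tested genes were DEGs higher in PyMT mice, where 8.70% of all tested genes were, and 8 were DEGs lower in PyMT mice, where 17.5% of all tested genes were. The higher genes were the ligands Ccl8 and Cxcl1 and the receptors Ccr1 and Cx3cr1. The lower genes were the ligands Ccl6, Ccl11, Ccl24, Cxcl9, Cxcl12, Cxcl14 and Cxcl15 and the scavenging receptor Cxcr7. The median log2 fold change was -0.23 over the 8 CC ligands, -1.33 over the 7 CXC and CX3C ligands and 0.10 over the 6 receptors, beside -0.03 over all tested genes. In 3 genes, Cxcl9, Cxcl12 and Ccl11, all 12 PyMT libraries lay below all 12 FVB libraries, as they did in 7.22% of all tested genes, and in no member did all PyMT libraries lie above all FVB libraries, as they did in 4.67% of all tested genes. Counts divided by the packet size of each library gave the same 12 DEGs. Without the 7 libraries rich in muscle markers, the calls of Cxcl1, Ccr1 and Ccl6 were lost. Their log2 fold changes were then 2.10, 0.90 and -0.61. That fit kept 17 libraries, with only replicate 3 of each genotype at week 6. Whether fewer libraries or muscle in the samples ended these calls was not tested.

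**Figure D1:**
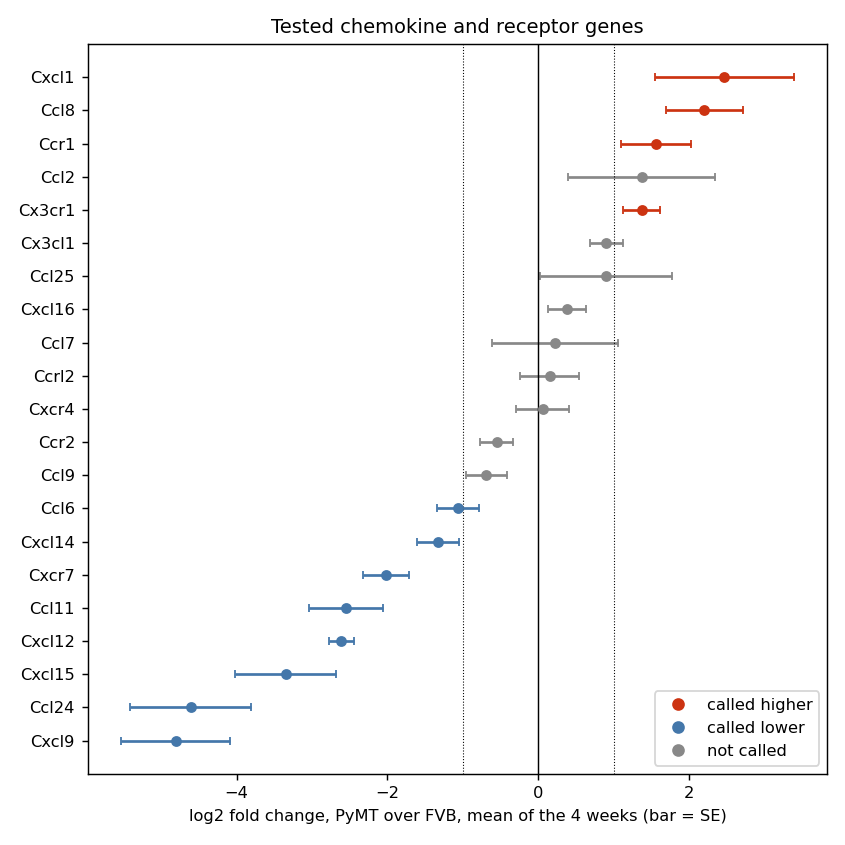
Log2 fold change of PyMT over FVB averaged over the 4 weeks (x axis, bar = SE from edgeR's fit of 24 libraries) for the 21 tested chemokine and receptor genes, with dotted lines at a fold change of 2. The points run from Cxcl9 at -4.81 to Cxcl1 at 2.47, with 8 genes called lower and 4 called higher.

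Compared per length, as normalized counts per kb of exon, the most abundant of the 37 genes in FVB mice was Cxcl12 at 294 ± 56.1 (SD, n = 12), followed by Cxcl14 at 274 ± 104, Ccl11 at 225 ± 127 and Ccl6 at 210 ± 124. On this length, neighbours in the order did not differ beyond their spread. The levels depend on the length used. Per kb of the longest transcript Cxcl12 was at 427 in FVB mice, beside Cxcl14 at 274, Ccl6 at 262 and Ccl11 at 225. In PyMT mice Ccl8 was first at 306 ± 267 (SD, n = 12), then Cx3cl1 at 135 ± 36.4, Cxcr4 at 131 ± 41.7, Cxcl14 at 109 ± 69.9 and Ccl6 at 101 ± 40.6, and again each differed from the next by less than its spread. Cxcl12 had rank 8 there at 48.5 ± 17.6, and was at 70.5 per kb of the longest transcript. The sums and shares below use the exon length and depend on it too. Summed over the 29 ligands, the level per kb ran from 1032 to 1978 in FVB mice (median 1547) and from 566 to 1875 in PyMT mice (median 813). Cxcl12 made up 14.6% to 28.0% of that sum in FVB libraries and 2.14% to 12.8% in PyMT libraries. Ccl8 made up 0% to 7.84% in FVB libraries and 9.45% to 55.4% in PyMT libraries. Neither share overlapped between the genotypes, while those of Cxcl14, Ccl6, Cx3cl1, Ccl11 and Cxcl16 did. A share also depends on the other ligands in the sum. The Ccl8 level itself overlapped, at 34.0 to 530 normalized counts in PyMT mice and 0 to 66.8 in FVB mice.

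**Figure D2:**
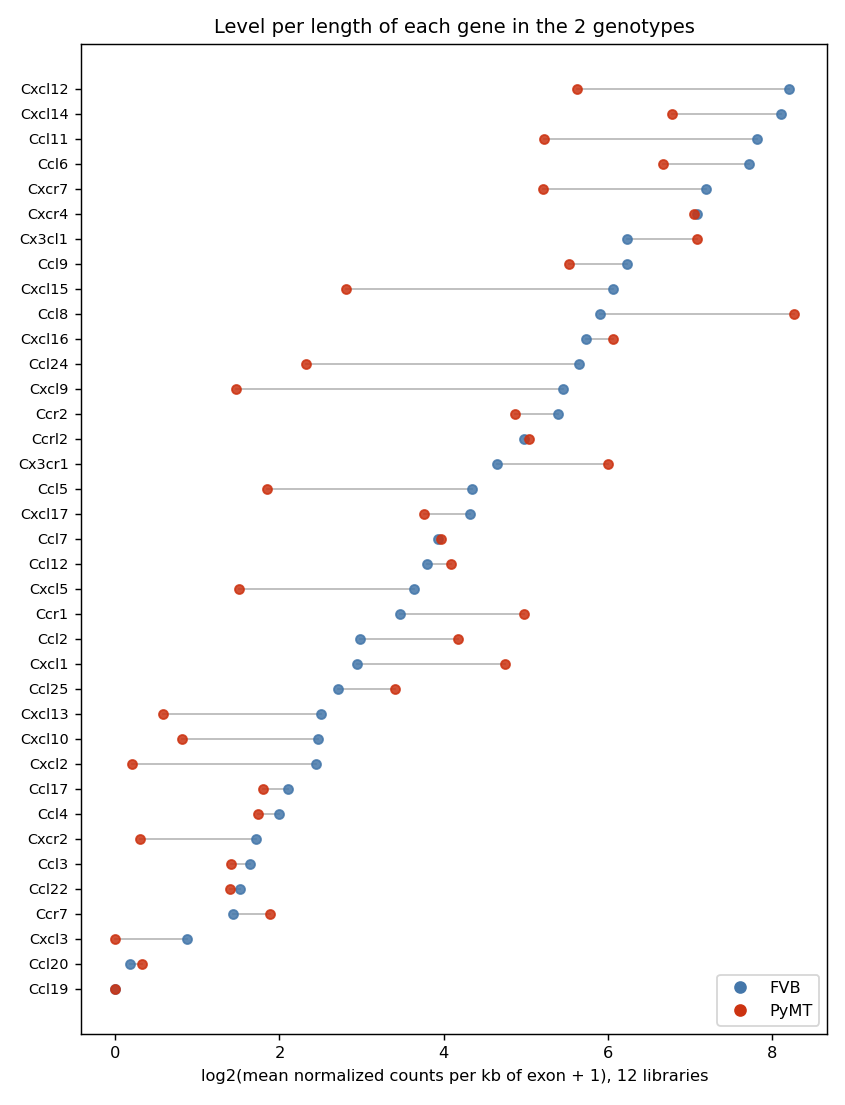
Mean level of each of the 37 genes in FVB (blue) and PyMT (red) libraries, as log2 of normalized counts per kb of exon plus 1, ordered by the FVB level, with a grey line joining the 2 means of a gene. Cxcl12 is first in FVB at 294 per kb and at rank 8 in PyMT at 48.5 per kb, and Ccl8 is at rank 10 in FVB at 58.9 per kb and first in PyMT at 306 per kb.

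Cxcl12 is the ligand of the signalling receptor Cxcr4 and of Cxcr7 (Ackr3), which takes Cxcl12 up from the surroundings. Cxcl12 (chr6:117118553-117131385 on mm9, plus strand) had 2305, 1614 and 1830 normalized counts in FVB mice at week 6, 3055, 1822 and 2431 at week 8, 2301, 2827 and 2399 at week 10, and 2883, 2760 and 2613 at week 12. In PyMT mice it had 466, 592 and 633 at week 6, 352, 167 and 538 at week 8, 317, 307 and 281 at week 10, and 464, 400 and 245 at week 12. Every PyMT library was below every FVB library, with a gap from 633 to 1614. The log2 fold change over the 4 weeks was -2.61 ± 0.16 (SE), or 6.10-fold lower (edgeR's quasi-likelihood test, adjusted p = 4.58e-11). It was a DEG at all 4 weeks, with a log2 fold change of -1.77 ± 0.21 (adjusted p = 0.00266) in the week 6 mice and -2.76 ± 0.44 (adjusted p = 0.0102) in the week 8 mice. The values were -3.0 ± 0.18 (adjusted p = 0.000109) in the week 10 mice and -2.85 ± 0.25 (adjusted p = 0.000296) in the week 12 mice. At week 8 the call was lost without PyMT replicate 1.

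Cxcr7 (chr1:92100555-92113326 on mm9, plus strand) had 225 to 1044 normalized counts in FVB mice (median 441) and 25 to 239 in PyMT mice (median 112). The genotypes overlapped only through the highest PyMT library, at week 12, and 11 of 12 PyMT libraries lay below all FVB libraries. The log2 fold change over the 4 weeks was -2.02 ± 0.31 (SE), 4.05-fold lower, with an adjusted p of 1.73e-05. Cxcr7 was a DEG at week 8 (-1.93), week 10 (-2.47) and week 12 (-1.43), and the week 8 call was lost on leaving out any 1 of its 6 libraries. The week 10 call was lost in 3 of 6 such fits, without any 1 of the PyMT libraries, and the week 12 call in 4 of 6, as well as by library size scaling and with all 24 samples in the fit. Cxcr4, by contrast, did not pass the test over the 4 weeks, with a log2 fold change of 0.06 ± 0.35 (adjusted p = 0.907), 97.6 to 375 normalized counts in PyMT mice (median 253) and 1.56 to 622 in FVB mice (median 204). The FVB value of 1.56 came from week 10 replicate 3, the library with the most mid-level genes at 0. At week 12 Cxcr4 had 281, 284 and 307 in PyMT mice against 151, 222 and 160 in FVB mice, without overlap, a log2 fold change of 0.76 ± 0.24 with an adjusted p of 0.048 and a fold change under 2. So the ligand and its scavenger were lower in PyMT mice, and a difference in Cxcr4 over the weeks was not detected.

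The markers of the stromal cell types known to make Cxcl12 moved with it. All 7 fibroblast markers and all 6 endothelial markers were DEGs lower in PyMT mice over the 4 weeks, with median log2 fold changes of -2.19 and -2.39, and so were all 8 adipocyte markers, with a median of -3.93. Their sums did not overlap between the genotypes: 21571 to 45217 in PyMT against 51480 to 188624 in FVB for fibroblasts, 742 to 2048 against 5368 to 8958 for endothelium, and 862 to 14233 against 43042 to 119545 for adipocytes. Their part in the lower Cxcl12, Cxcr7, Ccl11, Cxcl14 and Ccl24 was not tested.

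**Figure D3:**
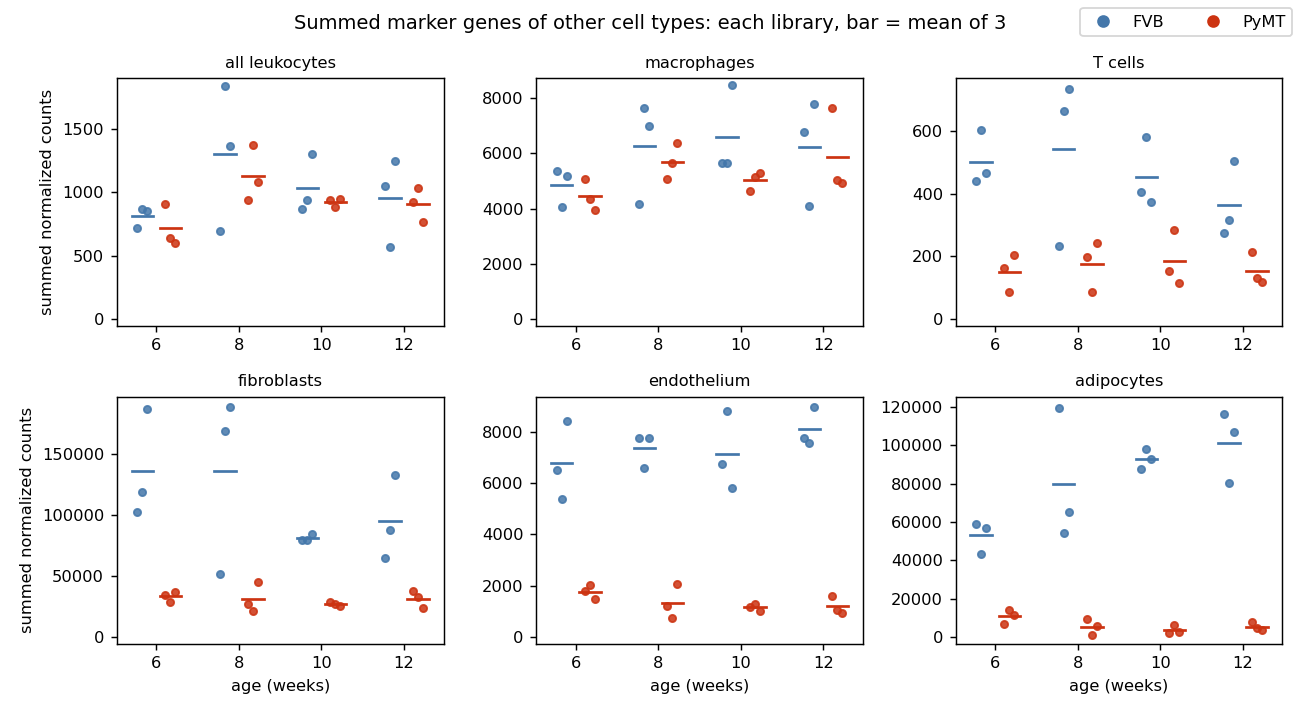
Summed normalized counts of marker genes of 6 cell types (y axis of each panel) in every library by age in weeks, with FVB in blue, PyMT in red and a bar at the mean of 3. The fibroblast, endothelial and adipocyte sums are lower in all 12 PyMT libraries than in any FVB library, while the leukocyte and macrophage sums overlap.

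Among the CC chemokines grouped as monocyte attractants, 5 of 9 were tested, 1 was higher (Ccl8) and 1 lower (Ccl6), and the median log2 fold change was 0.22. Ccl8 (MCP-2; chr11:81928687-81930301 on mm9, plus strand) had 0 to 66.8 normalized counts in FVB mice (median 26.2) and 34.0 to 530 in PyMT mice (median 125). In PyMT mice it had 54.3, 126 and 34.0 at week 6, 108, 58.1 and 282 at week 8, 134, 171 and 69.1 at week 10, and 530, 185 and 123 at week 12. All PyMT libraries of weeks 10 and 12 lay above all FVB libraries, and 9 of the 12 did over the 4 weeks. The log2 fold change was 2.20 ± 0.51 (SE), 4.60-fold higher (edgeR's quasi-likelihood test, adjusted p = 0.00112), and at week 12 it was 3.17 ± 0.58 (adjusted p = 0.00544).

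Ccl6 and Ccl9, a pair of CC chemokines made by mouse myeloid cells that signal through Ccr1, were lower. Ccl6 (chr11:83401384-83406589 on mm9, minus strand) had 96.1 to 298 normalized counts in PyMT mice (median 155) and 113 to 936 in FVB mice (median 306), and the genotypes overlapped over much of their range. Its log2 fold change was -1.06 ± 0.28 (SE) with an adjusted p of 0.00364, and the call was lost in 6 of 24 fits that left out a library, as was that at week 6 in 5 of 6. Ccl9 had 68.8 to 215 in PyMT mice and 103 to 531 in FVB mice, and its log2 fold change of -0.69 ± 0.27 passed the test (adjusted p = 0.0368) with a fold change under 2. The Ccl6 model overlaps E230016K23Rik on the opposite strand.

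Ccl2 (MCP-1), the main ligand of Ccr2, was low in both genotypes, at 0 to 64.1 normalized counts in PyMT mice (median 9.50, 4 libraries at 0) and 0 to 15.1 in FVB mice (median 10.4, 3 at 0). Its log2 fold change was 1.37 ± 0.98 (SE) with an adjusted p of 0.254, and -0.50 without PyMT week 6 replicate 1, which had 64.1. Ccl7 (MCP-3) had 0 to 27.8 in PyMT mice and 0 to 50.3 in FVB mice, with a log2 fold change of 0.22 ± 0.84 (adjusted p = 0.847). Neither gene passed the test at any week, and the Ccl2 model overlaps Gm17268 on the opposite strand. Ccl12 (MCP-5) was under the filter, at 0 to 22.9 in PyMT mice and 0 to 21.6 in FVB mice. Among these monocyte attractants, then, Ccl8 was the 1 DEG that was higher. Ccl3 and Ccl4, made by activated myeloid cells, reached at most 17.2 and 13.6 and were at 0 in 17 and 16 libraries. Ccl5 (RANTES), a T cell product, was also under the filter, at 0 to 14.7 in PyMT mice (median 0.882, 6 at 0) and 0 to 42.1 in FVB mice (median 15.4, 1 at 0).

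The receptors Ccr1 and Ccr2 differed in direction. Ccr1 (chr9:123876959-123883525 on mm9, minus strand) had 24.4 to 179 normalized counts in PyMT mice (median 73.1) and 0 to 50.4 in FVB mice (median 27.5), and 8 of 12 PyMT libraries lay above all FVB libraries. Its log2 fold change was 1.56 ± 0.46 (SE), 2.96-fold higher (edgeR's quasi-likelihood test, adjusted p = 0.00755), and it was a DEG at no single week. Its neighbour Ccr2, the receptor of inflammatory monocytes, had 95.3 to 365 in PyMT mice (median 184) and 106 to 462 in FVB mice (median 264). Ccr2 passed the test at -0.55 ± 0.22 (adjusted p = 0.041), with a fold change under 2. The atypical receptor Ccrl2, which binds chemerin, had 13.1 to 118 in PyMT mice and 22.0 to 192 in FVB mice, with a log2 fold change of 0.15 ± 0.39 (adjusted p = 0.778).

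The 10 macrophage markers summed to 3929 to 7666 in PyMT mice and 4061 to 8497 in FVB mice, and 1 of them (Cd163) was a DEG, lower in PyMT mice. The 5 markers of all leukocytes summed to 601 to 1372 and 570 to 1839 with a median log2 fold change of -0.25. These sums overlapped between the genotypes, and so did the levels of Ccl8, Ccr1 and Cx3cr1, which were DEGs higher in PyMT mice. The part of macrophages or other leukocytes in those levels was not tested.

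Cx3cr1, the fractalkine receptor of macrophages and monocytes, and its 1 ligand Cx3cl1 (fractalkine), which is anchored in the membrane of epithelial and endothelial cells, both had higher levels in PyMT mice. Cx3cr1 (chr9:119957811-119977400 on mm9, minus strand) had 172, 178 and 135 normalized counts in PyMT mice at week 6, 347, 248 and 324 at week 8, 258, 149 and 217 at week 10, and 259, 323 and 203 at week 12. In FVB mice it had 26.7, 124 and 87.2 at week 6, 74.4, 165 and 92.7 at week 8, 131, 62.1 and 42.3 at week 10, and 116, 59.2 and 95.1 at week 12. Within each week the genotypes did not overlap, and over all weeks 10 of 12 PyMT libraries lay above all FVB libraries. The log2 fold change was 1.37 ± 0.24 (SE), 2.58-fold higher (edgeR's quasi-likelihood test, adjusted p = 6.82e-05). It was a DEG at week 8 (1.48 ± 0.38, adjusted p = 0.0461) and week 12 (1.59 ± 0.33, adjusted p = 0.00981), and the week 8 call was lost in 5 of the 6 fits without 1 library.

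Cx3cl1 (chr8:97295909-97306323 on mm9, plus strand) had 281 to 746 normalized counts in PyMT mice (median 510) and 62.6 to 639 in FVB mice (median 278). Over the 4 weeks its log2 fold change of 0.90 ± 0.22 (SE) passed the test (adjusted p = 0.00161) at 1.87-fold. At week 8 the values were 517, 746 and 502 in PyMT mice and 286, 247 and 307 in FVB mice, without overlap, and Cx3cl1 was a DEG there at 1.08 ± 0.23 (adjusted p = 0.0253), lost in 5 of the 6 fits without 1 library. Of the 6 luminal epithelium markers 5 were DEGs higher in PyMT mice, and their sum was 19707 to 37268 against 4174 to 18300, while the endothelial sum was lower. The part of either in the level of Cx3cl1 was not tested.

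Of the 5 CXC chemokines grouped as neutrophil attractants, 2 were tested, and Cxcl1 was higher and Cxcl15 lower. Cxcl1 (KC; chr5:91320267-91322141 on mm9, plus strand) had 8.01, 0 and 46.0 normalized counts in PyMT mice at week 6, 32.4, 79.7 and 30 at week 8, 1.78, 10.5 and 10.2 at week 10, and 25.7, 23.5 and 26.8 at week 12. In FVB mice 7 of 12 libraries were at 0, and the highest values were 40.7 and 10.2 at week 8 and 18.7 at week 10. The genotypes overlapped at weeks 6, 8 and 10 and were apart at week 12, where the FVB values were 0, 0 and 3.28. The log2 fold change over the 4 weeks was 2.47 ± 0.92 (SE) with an adjusted p of 0.0303, and that at week 12 was 4.33 ± 1.29 (adjusted p = 0.0382). The call over the weeks was lost in 5 of 24 fits that left out a library. The week 12 call was lost in 5 of the 6 fits without 1 library and in 5 of 9 other alternatives, with log2 fold changes of 3.79 to 7.54. As a ratio of the means over 12 libraries, which does not depend on a prior count, Cxcl1 was 3.86 times higher in PyMT mice (24.5 against 6.36).

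Cxcl15 (lungkine; chr5:91223560-91232093 on mm9, plus strand), a CXC chemokine of mouse epithelium, went the other way. It had 0 to 59.7 normalized counts in PyMT mice (median 8.87) and 28.2 to 324 in FVB mice (median 113), and 11 of 12 PyMT libraries lay below all FVB libraries. Its log2 fold change was -3.35 ± 0.67 (SE), 10.2-fold lower (edgeR's quasi-likelihood test, adjusted p = 0.000285). At week 12 it had 221, 324 and 278 in FVB mice and 14.4, 10.7 and 0 in PyMT mice, -5.0 ± 0.80 on the log2 scale (adjusted p = 0.00288). Cxcl2 (MIP-2), Cxcl3 and Cxcl5 (LIX) were at 0 in 19, 23 and 20 libraries, and Cxcr2, the neutrophil receptor for such ligands, was at 0 in 14. The neutrophil markers without Ltf, which mammary epithelium also makes, summed to 38.6 to 165 in PyMT mice (median 115) and 0 to 202 in FVB mice (median 28.2), where the value of 202 was week 10 replicate 1 and the other FVB libraries had at most 57.8. Of the 3 neutrophil markers tested, Ltf and S100a8 were DEGs higher in PyMT mice. S100a8, a calcium-binding protein of neutrophils and monocytes, had 38.6 to 131 normalized counts in PyMT mice and 0 to 18.7 in FVB mice, without overlap (edgeR's adjusted p = 8.38e-07 over the 4 weeks), and was a DEG at weeks 6, 8 and 12. The rest of the neutrophil list is named after its values were seen. Csf3r, tested and not a DEG, had 0 to 62.0 in PyMT mice (median 29.2) and 0 to 125 in FVB mice (median 23.2). S100a9 was under the filter, with medians of 1.72 in PyMT mice and 0 in FVB mice. Mmp8, Mpo and Camp, also under the filter, had a median of 0 in both genotypes. Ly6g was at 0 in all 24 libraries. The part of neutrophils in the level of Cxcl1 was not tested. The Cxcl15 model overlaps a miRNA model on the opposite strand.

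The stretches just upstream of Cxcl1, Cxcl2 and Cxcl3, genes of 1 cluster of which only Cxcl1 was tested, are shown because each holds a pair of matches to the NF-kB motif searched here (GGNNNTTCC on either strand). They are the 110 bases before the RefSeq start on GRCm38.p6, written 5′ to 3′ on the gene's strand with the matches in capitals. They lie at chr5:90891135-90891244, chr5:90903789-90903898 and chr5:90785991-90786100, all on the plus strand.
Cxcl1: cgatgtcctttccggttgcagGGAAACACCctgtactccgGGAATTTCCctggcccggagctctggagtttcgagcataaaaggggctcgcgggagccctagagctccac
Cxcl2: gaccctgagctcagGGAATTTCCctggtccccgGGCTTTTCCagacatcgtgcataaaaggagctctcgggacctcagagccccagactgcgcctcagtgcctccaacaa
Cxcl3: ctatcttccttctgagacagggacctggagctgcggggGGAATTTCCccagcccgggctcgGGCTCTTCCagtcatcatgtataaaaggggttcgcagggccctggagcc
The matches begin 89 and 70 bases before the start in Cxcl1, 96 and 77 in Cxcl2, and 72 and 49 in Cxcl3. Such a match occurred in 18.5% of all 32851 RefSeq windows of 300 bases (250 before and 50 after a start). It occurred in 12 of the 28 members with a window, in 1 of the 4 higher DEGs (Cxcl1) and in 1 of the 6 lower DEGs that had one (Cxcl9). The 28 members had 31 windows. Here and below, a member counts if any of its windows holds a match, while the share over RefSeq is of windows. A match is a description of the letters, and nothing about binding was measured.

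Cxcl9 (MIG) and Cxcl10 (IP-10) are interferon-induced ligands of Cxcr3, which T cells and NK cells carry. Cxcl9 (chr5:92750357-92757105 on mm9, minus strand) had 43.8 to 288 normalized counts in FVB mice (median 99.2) and 0 to 24.4 in PyMT mice (median 2.84), where 6 of 12 libraries were at 0. At week 12 it had 76.7, 208 and 108 in FVB mice and 0, 9.62 and 6.47 in PyMT mice. The genotypes did not overlap in any week. The log2 fold change over the 4 weeks was -4.81 ± 0.72 (SE) with an adjusted p of 1.10e-05, and as a ratio of the means over 12 libraries Cxcl9 was 24.5 times lower in PyMT mice (5.10 against 125). Cxcl9 was a DEG at week 6 (-5.29 ± 1.39, adjusted p = 0.0445) and week 12 (-4.52 ± 0.94, adjusted p = 0.00898), and the week 6 call was lost in 4 of the 6 fits without 1 library.

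Cxcl10 was under the filter, at 0 in 7 of 12 libraries of each genotype, with at most 5.12 in PyMT mice and 47.7 in FVB mice. Its model overlaps Art3 on the opposite strand. The 8 T cell markers summed to 84.5 to 284 in PyMT mice (median 157) and 232 to 736 in FVB mice (median 452), and 10 of 12 PyMT libraries lay below all FVB libraries. Much of that sum was Thy1, which fibroblasts also make, with a median of 100 in PyMT mice and 409 in FVB mice. Of the 3 T cell markers tested Thy1 was the 1 DEG, lower in PyMT mice, and the median log2 fold change of the 3 was 0.04. The others, named after their values were seen, were Cd4 at 0.04 ± 0.69 (edgeR's adjusted p = 0.965) and Lck at 0.19 ± 0.67 (adjusted p = 0.839). The part of T cells in the lower Cxcl9 was not tested.

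The stretches upstream of Cxcl9 and Cxcl10 are shown because each holds both the NF-kB motif and an interferon response motif (ISRE, searched as GAAANNGAA on either strand), both in capitals. They are the 220 bases before the RefSeq start on GRCm38.p6, at chr5:92328080-92328299 and chr5:92348890-92349109 on the minus strand.
Cxcl9: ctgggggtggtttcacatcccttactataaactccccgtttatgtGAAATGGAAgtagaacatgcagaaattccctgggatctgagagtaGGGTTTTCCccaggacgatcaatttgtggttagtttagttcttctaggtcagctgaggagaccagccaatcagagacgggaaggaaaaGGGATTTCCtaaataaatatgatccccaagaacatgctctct
Cxcl10: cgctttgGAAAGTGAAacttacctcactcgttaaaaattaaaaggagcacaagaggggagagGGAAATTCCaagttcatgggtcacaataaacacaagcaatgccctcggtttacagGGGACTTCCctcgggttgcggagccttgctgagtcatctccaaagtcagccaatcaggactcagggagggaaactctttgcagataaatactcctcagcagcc
In Cxcl9 the interferon response motif begins 175 bases before the start and the NF-kB matches 130 and 42 bases before it. In Cxcl10 these begin 213, 158 and 103 bases before it. The interferon response motif occurred in 8.6% of all windows and in 6 of the 28 members with one. Another motif, the STAT-binding GAS (TTCNNNGAA), occurred in 8.3% of windows and in 2 of the 28 members, Ccl17 and Cxcl14. No matches of different motifs overlapped in the members.

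The eosinophil attractants Ccl11 (eotaxin-1) and Ccl24 (eotaxin-2), ligands of Ccr3, were both lower in PyMT mice. Ccl11 (chr11:81871325-81876457 on mm9, plus strand) had 107 to 601 normalized counts in FVB mice (median 214) and 0 to 96.4 in PyMT mice (median 43.5), with no overlap. Its log2 fold change was -2.55 ± 0.49 (SE), 5.85-fold lower (edgeR's quasi-likelihood test, adjusted p = 0.000169), and it was a DEG at week 10 (-2.79) and week 12 (-2.41). The week 10 call was lost without PyMT replicate 3. Ccl24 (chr5:136045807-136048913 on mm9, minus strand) was listed at 0 in all 3 PyMT libraries of week 6, against 47.5, 13.1 and 18.5 in FVB mice. In raw counts this was 0 against 79, or 33.8 times lower against a floor of 3 counts over the group. Low counts in these PyMT libraries came in packets of 14, 25 and 13. A single packet exceeds that floor, so 33.8 is not a lower bound and the difference may be much smaller. In the later weeks it had 0, 0 and 8.23, then 1.78, 17.8 and 9.38, then 18.5, 0 and 6.47 in PyMT mice, and 10.1 to 142 in all FVB libraries. The 3 highest values of PyMT mice, 18.5, 17.8 and 9.38, came from weeks 10 and 12. As a ratio of the means over 12 libraries Ccl24 was 12.2 times lower in PyMT mice (5.18 against 63.4), with an adjusted p of 8.72e-05 over the 4 weeks, and it was a DEG at no single week. The Th2 cell attractants Ccl17 and Ccl22 reached at most 7.48 and 17.5 and were under the filter.

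Cxcl14 (BRAK; chr13:56390008-56397912 on mm9, minus strand), an epithelial and stromal chemokine, had 238 to 839 normalized counts in FVB mice (median 448) and 50.1 to 509 in PyMT mice (median 151). The PyMT library at 509 was week 8 replicate 3, and 9 of 12 PyMT libraries lay below all FVB libraries. Its log2 fold change was -1.33 ± 0.28 (SE), 2.52-fold lower (edgeR's quasi-likelihood test, adjusted p = 0.00046), and it was a DEG at week 10 (-1.88) and week 12 (-1.47). Cxcl16, a membrane-bound ligand of Cxcr6, had 136 to 406 in PyMT mice and 37.1 to 279 in FVB mice, with a log2 fold change of 0.38 ± 0.25 (adjusted p = 0.221), and its model overlaps Zmynd15 on the opposite strand. Ccl25, the Ccr9 ligand known from the gut and thymus, had 0 to 64.1 in PyMT mice and 0 to 30.2 in FVB mice, at 0.90 ± 0.88 (adjusted p = 0.415). Another Ccl25 model overlaps this one on the same strand, and the model with the most counts was used. Reads shared by both may not have been assigned, so the Ccl25 level is uncertain. The mucosal chemokines Ccl20 and Cxcl17 were under the filter, with at most 4.26 and 50.4. Of the lymphoid tissue genes, Cxcl13 and Ccr7 reached at most 34.1 and 22.6, also under the filter. Ccl19 was listed at 0 in all 24 libraries, and it belongs to genes with near-identical copies whose reads a counter may not assign, so its level is uncertain. The markers of dendritic cells, among which Ccr7 is known, summed to 86.6 to 486 in PyMT mice and 256 to 653 in FVB mice. The 5 tested markers differed in direction over the 4 weeks. Itgax was a DEG higher in PyMT mice (median 150 against 39.7), and Zbtb46, Flt3 and Clec9a were DEGs lower.

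**Figure D4:**
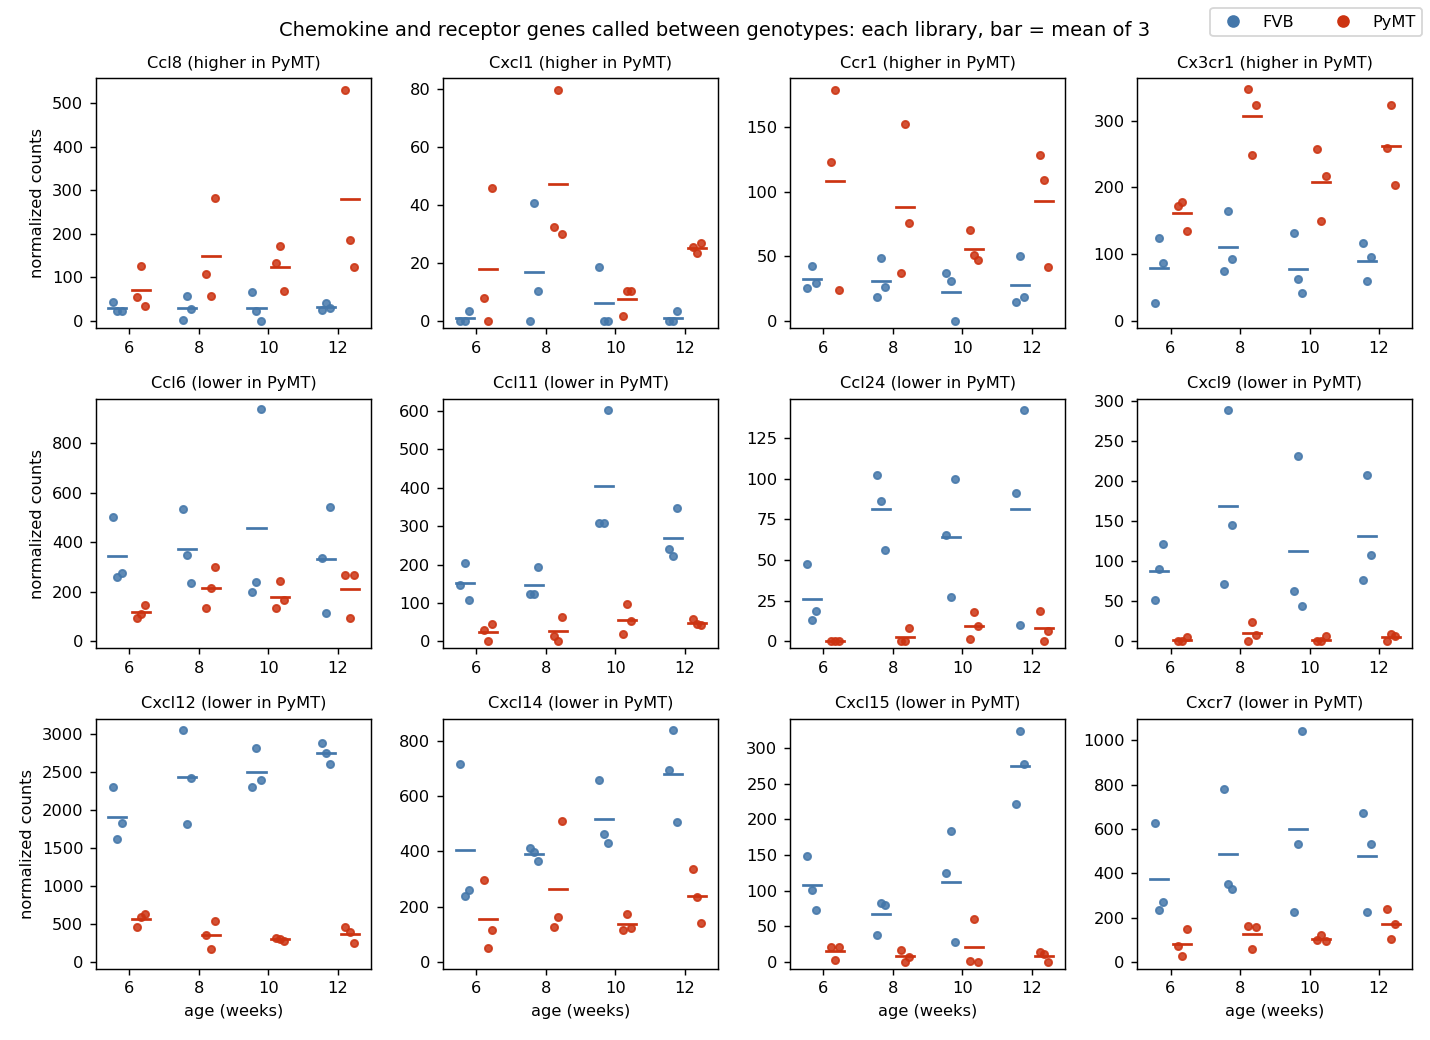
Normalized counts (y axis, from 0 in each panel) of the 12 genes called over the 4 weeks, in every library by age in weeks, with FVB in blue, PyMT in red and a bar at the mean of 3. Cxcl12, Cxcl9 and Ccl11 show no overlap between the genotypes, and Ccl8 reaches its highest value, 530, in a PyMT library of week 12.

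Neighbouring genes differed in direction in 3 clusters. In the cluster of 5 CC genes on chromosome 11 (chr11:81849073-81930301 on mm9, 81.2 kb), Ccl8 was higher and Ccl11, 52.2 kb away, was lower, and Ccl2 and Ccl7 did not pass the test. In the cluster of 5 CXC genes on chromosome 5 (chr5:91188325-91334935, 147 kb), Cxcl1 was higher and Cxcl15, 88.2 kb away, was lower. In the second CC cluster of chromosome 11 (chr11:83339280-83478185, 139 kb), Ccl6 was lower, Ccl9 passed the test with a fold change under 2, and Ccl3, Ccl4 and Ccl5 were under the filter. Ccr1 and Ccr2, within 151 kb on chromosome 9, differed in direction. These clusters were defined as members less than 300 kb apart.

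By week, the comparisons of which share their libraries with the mean over the weeks, the number of DEGs among the 21 tested genes varied. At week 6 there were 0 higher (3.58% of all tested genes were) and 3 lower (Ccl6, Cxcl9 and Cxcl12; background 6.46%). No member was called higher at week 6 by edgeR, DESeq2 or limma voom. In edgeR's test 8 of the 21 had an unadjusted p under 0.05 in either direction, beside 3986 of all 14918 tested genes. At week 8 there were 2 higher (Cx3cl1 and Cx3cr1; background 3.57%) and 2 lower (Cxcl12 and Cxcr7; background 6.37%). At week 10 there were 0 higher (background 4.83%) and 4 lower (Ccl11, Cxcl12, Cxcl14 and Cxcr7, background 9.09%). DESeq2 and limma voom each called 1 member higher there. Again 8 of the 21 had an unadjusted p under 0.05 in either direction in edgeR's test, beside 4552 of all 14918 tested genes. At week 12 there were 3 higher (Ccl8, Cxcl1 and Cx3cr1; background 7.75%) and 6 lower (Ccl11, Cxcl9, Cxcl12, Cxcl14, Cxcl15 and Cxcr7; background 13.0%). The week 12 calls of Ccl11 and Cxcl14 were lost with all 24 samples in the fit. Each of the 12 genes called over the weeks kept its sign at all 4 weeks.

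**Figure D5:**
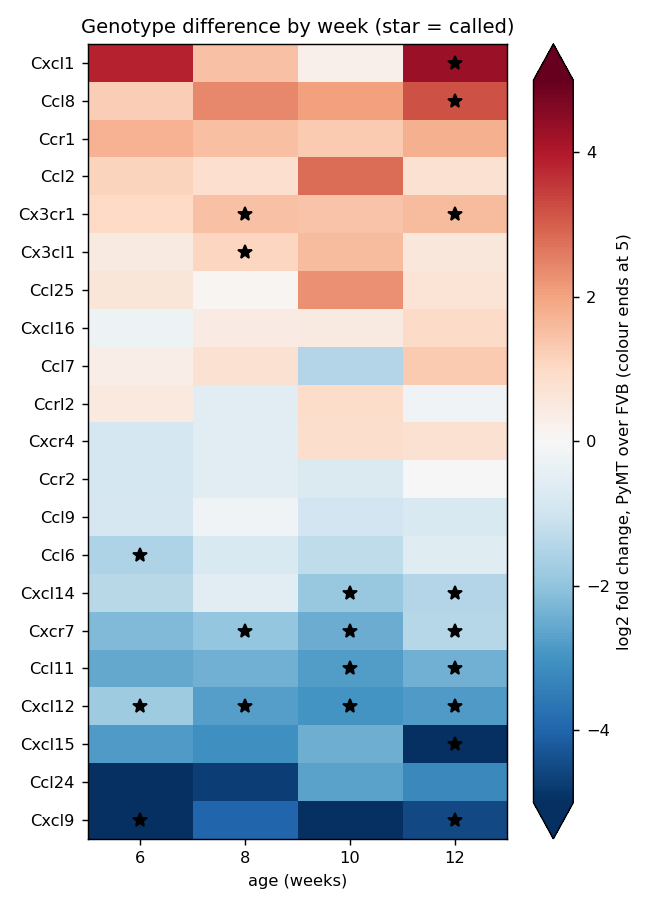
Log2 fold change of PyMT over FVB at each week (columns, age in weeks) for the 21 tested genes (rows, ordered by the mean over the weeks), red for higher and blue for lower in PyMT, with a star where the gene was called in that week's fit of 3 against 3. Cxcl12 is starred at all 4 weeks and Cxcr7 at 3.

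Whether the genes changed from the premalignant weeks 6 and 8 to the carcinoma weeks 10 and 12 was asked within each genotype and between them. Within PyMT mice 0 members were DEGs in either direction (0% of all tested genes were, higher or lower), and 1 member had an unadjusted p under 0.05, Ccl24 at 3.89 ± 1.2 (edgeR's adjusted p = 0.543), a fitted value that depends on libraries at 0. An unadjusted p under 0.05 came in 798 of all 14918 tested genes there in edgeR's test. DESeq2 and limma voom called 41 and 19 genes of the whole table, and 0 members. Among the others, Ccl8 was at 0.85 ± 0.69, Cxcl12 at -0.42 ± 0.22 and Cx3cr1 at 0.08 ± 0.33. Within FVB mice 0 members were DEGs (0% of all tested genes higher, 0.0134% lower), and 2 members had an unadjusted p under 0.05, Cxcl16 (-0.90, edgeR's adjusted p = 0.672) and Cxcr4 (-1.14, adjusted p = 0.738), while DESeq2 and limma voom called 38 and 25 genes and 0 members. Of all 14918 tested genes 974 had an unadjusted p under 0.05 within FVB mice in edgeR's test. The change of the genotype difference between these pairs of weeks passed for 0 members and 0% of all tested genes. There 3 members had an unadjusted p under 0.05 in edgeR's test, Ccl24 (3.28, adjusted p = 0.848), Cxcl12 (-0.68, adjusted p = 0.873) and Cxcr4 (1.48, adjusted p = 0.904), and DESeq2 and limma voom called 13 and 39 genes of the whole table and 0 members. For that change 815 of all 14918 tested genes had an unadjusted p under 0.05 in edgeR's test. A test of any change among the 4 weeks also passed for 0 members and 0% of all tested genes. In edgeR's test of it 1 member, Cxcl12, had an unadjusted p under 0.05, beside 494 of all tested genes. DESeq2 and limma voom called 17 and 4 genes there, and 0 members.

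Of 29 other genes of the chemokine family, 8 were tested, and 0 were higher and 6 lower in PyMT mice over the 4 weeks (median log2 fold change -2.12). Beside this list and those below, 8.70% of all tested genes were DEGs higher and 17.5% were DEGs lower in PyMT mice. The ligand chemerin, Rarres2, was at -2.97 ± 0.19 (SE; edgeR's adjusted p = 7.30e-11), and its receptor Cmklr1 at -2.06 ± 0.19 (adjusted p = 1.28e-08). Among the others were the scavenging receptors Darc (-2.92, adjusted p = 0.00054) and Ccbp2 (-2.75, adjusted p = 0.0066). Of 30 genes of receptor signalling, all tested, 3 were higher and 4 lower (median -0.34). Elmo1, which acts with Dock2 in Rac activation, was at 1.21 ± 0.14 (adjusted p = 2.12e-07), the kinase subunit Pik3cg at 1.11 ± 0.21 (adjusted p = 0.000125), and Gng2, a G protein subunit, at -1.61 ± 0.29 (adjusted p = 9.46e-05). Of 22 cytokine and NF-kB genes known to induce chemokines, 13 were tested, 0 were higher, and 1, Il34, a ligand of the macrophage receptor Csf1r, was lower at -2.61 ± 0.44 (adjusted p = 4.70e-05).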

How the data were processed

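The authors trimmed adapters, aligned reads to mm9 with GSNAP and counted them per Ensembl gene with HTSeq, per the labels and the methods, and deposited raw counts without normalization. Whether HTSeq used the strand of these directional libraries is not given in the sources used here, so reads of overlapping models on opposite strands may be mixed. The members, gene lists, motifs and tests were chosen with earlier results of these data known, and every member could be named. Genes outside them are named if called over the 4 weeks, at most 4 a list by adjusted p. Some others were named after their values were seen, where stated.

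From these counts, edgeR 4.0.16 (TMM, quasi-likelihood test), DESeq2 1.42.0 and limma 3.58.1 were run under R 4.3.3, and tables and figures were made in Python 3.11.15 with pandas 2.3.3, NumPy 2.4.6 and matplotlib 3.10.9. The weekly fits used 3 against 3 libraries, and the other contrasts a fit of 24 libraries in 8 groups. Each standard error was derived by dividing the absolute log2 fold change by the root of its F value. Groups came from the sample titles. Replicates of a group differed by a chi-square per gene of 19.7 or more, so none was counted as a copy. Promoter letters are RefSeq's, on GRCm38.p6, with a window for 28 members. The fits were tested on simulated data. Alternatives were other scalings, filters and tools, a replicate block, libraries left out and, chosen after seeing the data, counts divided by the packet size and no libraries rich in muscle markers. Levels per kb were also taken over the longest transcript. The PyMT transgene and amino acid sequences were not analysed here.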

Additional observations from a re-analysis of the deposited data

How the results depend on the processing

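Of the 1014 values of 41 results on single genes under the alternatives, 921 kept their direction and call, 78 lost the call, 3 gained it and 12 changed sign. The 9 tested genes not called over the weeks are among these results, and a gene that stayed uncalled counted as kept. So the 921 do not measure how stable the calls alone were. The sign changes were of genes that were not called: Ccl2 at -0.50 without PyMT week 6 replicate 1 and -0.58 without the 7 libraries rich in muscle markers; Ccl7 at -0.68 by limma voom, -0.01 with counts divided by the packet size, -0.12 without PyMT week 10 replicate 2 and -0.09 without PyMT week 6 replicate 3; Cxcr4 at -0.03 without FVB week 6 replicate 1 or week 8 replicate 1, -0.08 without FVB week 10 replicate 3, -0.07 without the 2 libraries with the most genes at 0 and -0.39 without the muscle-rich libraries; and Ccrl2 at -0.05 without PyMT week 6 replicate 2. Leaving out 1 library at a time, Ccl2 ran from -0.50 to 2.60, Ccl7 from -0.12 to 0.51, Cxcr4 from -0.08 to 0.32 and Ccrl2 from -0.05 to 0.51. Over the 4 weeks, 4 genes were called higher and 8 lower, 3 to 5 and 7 to 8 when 1 library was left out. Without the muscle-rich libraries, a smaller fit, the calls of Cxcl1, Ccr1 and Ccl6 were lost. The Ccl6 call was also lost by library size scaling, the replicate block, limma voom and leaving out the 2 libraries with the most genes at 0, and the last also ended that of Cxcl1. No alternative ended the calls of the other 10 genes over the weeks, except that of Ccr1 without the muscle-rich libraries.

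At week 6, the 3 lower calls became 6 by DESeq2, 6 with packet-size counts and 1 to 4 when 1 library was left out (1 without PyMT replicate 1, FVB replicate 1 or FVB replicate 2). At week 8, the 2 higher calls became 1 with all 24 samples in the fit, 1 by limma voom and 0 to 1 when 1 library was left out. The 2 lower calls became 1 by library size scaling, 4 with no filter, 4 with all 24 samples, 6 by limma voom, 5 by DESeq2, 6 with packet-size counts and 0 to 3 when 1 library was left out (0 without PyMT replicate 1). At week 10, the 0 higher calls became 2 with all 24 samples, 1 by limma voom, 1 by DESeq2, 1 with packet-size counts and 0 to 2 when 1 library was left out (2 without FVB replicate 1), and the 4 lower calls 3 to 5. At week 12, the 3 higher calls became 5 by library size scaling, 5 with packet-size counts and 2 to 4 when 1 library was left out, and the 6 lower calls 3 with all 24 samples and 5 to 8. DEGs among all 14918 tested genes, in either direction, moved as well. At week 6, 1498 became 2229 by DESeq2 and 1924 with packet-size counts. At week 8, 1484 became 1575 by library size scaling, 2086 with all 24 samples and 2366 by limma voom. At week 10, 2076 became 2740 with all 24 samples and 2919 by DESeq2. At week 12, 3092 became 3581 by library size scaling and 2332 with all 24 samples. The cause of these moves was not tested. The calls between stages, ages and their changes stayed at 0 members under each alternative run.

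Same-numbered samples correlated in their deviations from the group means by -0.0413 to 0.198 (median 0.0539), with 4 of 12 pairs over 0.1, so the numbers were not taken to pair the samples. However, week 6 replicates 1 and 2 and week 10 replicate 3 were rich in muscle markers in both genotypes. Whether same-numbered samples were handled together was not tested. With the replicate block, 0 members were called higher at week 8 in place of 2 (Cx3cl1 and Cx3cr1), and the calls of Ccl6 and Cxcl9 at week 6, Cxcl1 at week 12 and Ccl6 over the weeks were also lost. Library size scaling shifted the median of all genes by 0.29 on the log2 scale, and turned the direction of no called gene. Low counts in packets limit what values under 25 counts can show.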

Other observations

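The FVB library of week 10, replicate 1, held the highest values of Cxcl2, Cxcl3 and Cxcl5, a pattern chosen after its values were seen. Cxcl5 had 228 normalized counts there (317 raw) and 0 in the other 11 FVB libraries, and in PyMT mice it had 32.1 in week 12 replicate 2 and at most 2.77 elsewhere. Cxcl2 had 95.6 (133 raw) and Cxcl3 had 10.1 (14 raw), and Cxcl3 was at 0 in the other 23 libraries. Cxcl1, at 18.7, was not the highest of the FVB libraries. Other genes known from neutrophils, platelets or inflammation were also high in it. Il1b had 123, against at most 12.8 in other FVB libraries and 63.7 in PyMT libraries. The platelet chemokine Ppbp had 338, against at most 34.9 and 7.06. S100a9 had 53.2, against at most 14.1 and 19.5. Csf3r, the receptor of granulocyte growth factor, had 125, against at most 39.0 and 62.0. Cxcr2 had 26.6 there and 26.5 and 24.4 in FVB week 8 replicates 1 and 2. Without this library 2 members were called higher at week 10.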
